A study of Mus musculus with 20 samples.

Results

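The libraries described here are the 10 RNA-seq libraries made from mouse liver after partial hepatectomy (PHx), of 20 in the series, split by how strongly they expressed mitotic genes. They comprised 5 libraries with high and 5 with low expression of Mki67, Top2a and Ccnb1, called high and low livers below. The split was made from these measured values and not from a label. Differences between high and low livers are therefore descriptions without a test, and the cell-cycle genes that made the split are no finding. The high livers were wild-type (WT) mouse 1 at 30 h, WT mouse 3 at 40 h and WT mouse 5 at 48 h after surgery, and Eed knockout (KO) mice 10 and 11, both at 40 h. The low livers were WT mouse 2 at 40 h, WT mouse 4 at 48 h, KO mice 7 and 8 at 48 h and KO mouse 12 at 30 h.

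After part of the liver is removed, hepatocytes that were resting enter the cell cycle, replicate their DNA and divide, and the remaining lobes grow back. Entry into the cycle is preceded by a priming phase with induction of immediate early genes, and passage through G1 depends on cyclin D1, while the inhibitor p21 (Cdkn1a) restrains it. During this time the liver transiently stores fat and must keep up glucose supply, bile formation and plasma protein secretion. EED is a core subunit of Polycomb repressive complex 2 (PRC2), which methylates histone H3 lysine 27 and keeps developmental genes silent.

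All mice were males of 2 months. WT mice were C57BL6/J animals bought from a vendor, and KO mice (EedHepKO) carried Eed alleles with exons 3 and 6 flanked by loxP sites, deleted by Cre under the albumin promoter. The deletion was aimed at hepatocytes, and which other liver cells kept Eed was not measured. The KO line was bred from crosses, and colony differences cannot be told apart from genotype. Each mouse gave lobes 1, 2 and 3 at surgery (baseline) and lobes 4, 5 and 6 afterwards, so lobe and time after PHx change together. In KO mice both high livers were collected at 40 h and no low liver was, so collection time and class cannot be told apart in that genotype. In WT mice both classes were collected at 40 h and at 48 h.

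The libraries held between 21634890 and 30461351 gene counts. Counts in the high livers ranged from 22960908 to 27324039, and in the low livers from 21634890 to 30461351. Mitochondrial genes took 6.17% to 8.09% of counts in high livers and 7.51% to 9.57% in low livers. Expression is given as CPM, the counts of a gene per 1000000 counts of its library, after TMM scaling over all 20 libraries. Eed, the targeted gene, stood at 14.6 to 23.3 CPM in the 5 WT livers after PHx and at 2.71 to 5.79 CPM in the 5 KO livers, which fits their genotype labels. The hepatocyte genes Alb, Apoa1 and Cps1 were abundant in every library, with a lowest level of 446 CPM for Cps1. In bulk tissue, fewer cells of a type and less RNA per cell cannot be told apart.

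Mki67, which encodes the proliferation antigen Ki-67, read 0.217, 0.283, 3.36, 8.07 and 3.63 CPM in the low livers, in the order WT mice 2 and 4, KO mice 7, 8 and 12. It read 82.6, 14.3, 328, 119 and 25.1 CPM in the high livers, in the order WT mice 1, 3 and 5, KO mice 10 and 11. The same 2 orders are used throughout. Top2a, the DNA topoisomerase that untangles chromosomes at mitosis, read 0.217, 0, 1.86, 4.42 and 1.51 CPM in low and 78.3, 10.7, 116, 104 and 17.6 CPM in high livers. Ccnb1, which encodes the mitotic cyclin B1, read 0, 0.0353, 0.383, 2.28 and 1.08 CPM in low and 9.06, 2.67, 139, 49.6 and 6.23 CPM in high livers. The classes lay closest between KO mouse 8, the low liver with the most Mki67 (8.07 CPM), and WT mouse 3, the high liver with the least (14.3 CPM). At that edge Ccnb1 differed little, at 2.28 and 2.67 CPM.

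**Figure D1:**
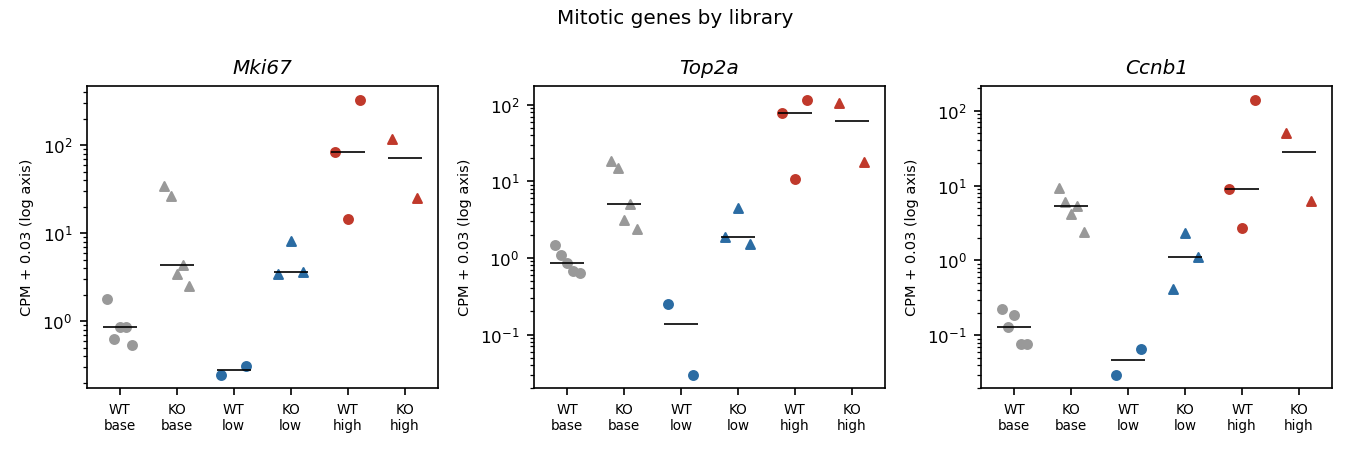
CPM of Mki67, Top2a and Ccnb1 in each library (log axis, 0.03 added), by genotype and class, with circles for WT, triangles for KO and lines at group medians. High livers lie above low livers for all 3 genes, and the baseline KO livers reach into the range of the high livers.

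The name cycling liver therefore holds unevenly. In the 5 baseline KO livers Mki67 ranged from 2.49 to 34.7 CPM, so KO mice 7 (34.7 CPM) and 8 (26.5 CPM) had more Mki67 before surgery than WT mouse 3 and KO mouse 11 had after it. In the 5 baseline WT livers it ranged from 0.508 to 1.76 CPM. The summed level of 42 S-phase genes was 203 to 401 CPM in low livers and 366 to 2577 CPM in high livers. These ranges overlap, because the S-phase sum of WT mouse 3 (366 CPM) lay inside the range of the low livers. WT mouse 5 had the highest summed level of 50 mitosis genes (4334 CPM), whereas WT mouse 1 had the highest S-phase sum (2577 CPM).

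A gene was counted as higher or lower in high livers when its fitted difference was at least 1 on the log2 scale and when, in WT and in KO separately, every high liver lay above (or below) every low liver. Of 15731 genes, 1248 (7.93%) were counted as higher and 898 (5.71%) as lower. Within the cell-cycle set, a list of cell-cycle genes with all genes named Cenp, Mcm or Hist, 206 of 399 genes (51.6%) were counted as higher and 2 (0.501%) as lower. Those 2 were Cdkn1a and the tubulin gene Tubb2a. Outside it, 1042 of 15332 genes (6.80%) were counted as higher and 896 (5.84%) as lower. Of the genes counted, 54 higher and 46 lower ones had at most 3 counts in at least 1 liver of the class with more of them. Counts for each gene list below are to be set beside the shares of all genes, 7.93% higher and 5.71% lower. The median difference of all genes was 0.01. With collection time added to the fit, 1251 genes were counted as higher and 876 as lower. Gene lists are given below by the members that passed the filter on low counts, which was all or nearly all members except for the developmental genes under PRC2 control (85 of 115), and the lymphocyte (9 of 22), neutrophil (10 of 15), erythroid (9 of 13) and female-biased (32 of 37) lists.

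The high and low livers of each genotype came from different mice, so the 2 genotypes can be set side by side. Among 12248 genes outside the cell-cycle set with a mean of at least 1 CPM, 2409 were separated by at least 1 on the log2 scale in WT livers and 2511 in KO livers. Of these, 1089 were separated in both, which is 45.2% of the WT genes and 43.4% of the KO genes. The direction was the same for 1079 of them and opposite for 10. Across these genes the WT and KO differences had a Pearson r of 0.62, given as a description, since genes are not independent replicates and classes were chosen in both genotypes by the same kind of gene.

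**Figure D2:**
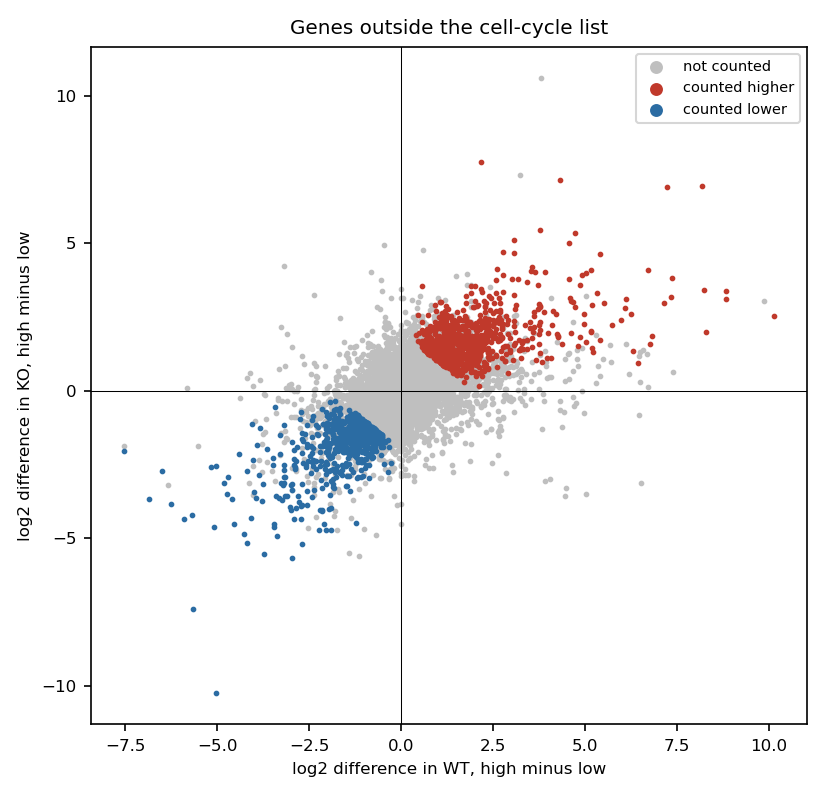
Difference between high and low livers (log2) in WT on the x axis and in KO on the y axis, for 12248 genes outside the cell-cycle set. The 869 genes counted as higher (red) and 689 counted as lower (blue) lie in the upper right and lower left, and other genes (grey) spread around 0.

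For most counted genes the high livers lay nearer to the liver before surgery. The baseline median over 10 libraries was nearer to the median of the high livers for 772 of the 869 genes counted as higher and for 623 of the 689 counted as lower. Among the 10690 genes not counted, the baseline median was nearer to the high livers for 72.1%. Baseline values are given below for some of the named genes.

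Among protein-coding genes outside the cell-cycle set with a mean of at least 5 CPM, the largest positive difference was that of Cyp7a1, the rate-limiting enzyme of bile acid synthesis from cholesterol (ENSMUSG00000028240, chr4:6265612-6275633, mm10). Its level was 0.0434, 0.212, 0.0885, 0.108 and 0.659 CPM in the low livers and 48.3, 0.459, 70.9, 60.9 and 3.72 CPM in the high livers. All low livers lay at or below 0.659 CPM. WT mouse 3 lay below KO mouse 12 but above both WT low livers, and 3 of 5 high livers exceeded 40 CPM. The difference was 7.48 ± 1.36 (log2 ± SE), with 8.17 in WT and 6.95 in KO. Before surgery Cyp7a1 stood at 25.5 to 91.96 CPM in WT and 6.96 to 18.4 CPM in KO.

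The other 11 genes with the largest positive differences were Neurl1b (7.02 ± 1.21), Ppp1r3c (5.57 ± 0.66), Serpinb8 (4.88 ± 1.73), Nrep (4.83 ± 0.74), Slfn9 (4.80 ± 1.16), Atp2b2 (4.55 ± 0.50), Fam47e (4.50 ± 0.92), Cyp8b1 (4.48 ± 1.03), Rtp3 (4.41 ± 0.48), Keg1 (4.20 ± 0.76) and Slc10a5 (3.87 ± 0.50). Ppp1r3c targets protein phosphatase 1 to glycogen, Cyp8b1 sets the share of cholic acid among bile acids, and Atp2b2 is a plasma membrane calcium pump. Neurl1b, an E3 ubiquitin ligase gene, rested on only 41 counts summed over the 5 low livers against 3471 over the high livers. At 40 h and 48 h, where WT livers of both classes were collected, the WT difference was 7.88 for Cyp7a1, 4.69 for Ppp1r3c and 3.45 for Cyp8b1. Serpinb8 was close to 0 in both WT low livers, at 0.0434 and 0 CPM, so its fitted difference depends on the small count that the fit adds and is no bound.

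The 12 genes with the largest negative differences were E030018B13Rik (-5.09 ± 0.88), Acot5 (-4.85 ± 0.91), Runx1 (-4.51 ± 0.62), Rgs16 (-4.48 ± 1.09), Rab30 (-3.98 ± 0.59), Pdk4 (-3.97 ± 0.67), Plin4 (-3.88 ± 0.75), Slc10a6 (-3.77 ± 0.74), Lepr (-3.76 ± 0.63), Hilpda (-3.76 ± 0.45), Kcnk1 (-3.66 ± 0.64) and Fosl1 (-3.49 ± 0.92). E030018B13Rik overlaps Klf13 on the other strand, and reads of the pair cannot be told apart where counting ignores strand. Runx1, a transcription factor of blood cell development, read 22.3, 16.9, 101, 66.2 and 42.8 CPM in the low livers and 0.0437, 1.91, 0.550, 1.72 and 4.44 CPM in the high livers. Its level was 0.0462 to 0.567 CPM in baseline WT and 1.16 to 3.30 CPM in baseline KO livers, all below the lowest low liver. Lepr, the leptin receptor, read 54.1, 215, 209, 187 and 102 CPM in low and 4.07, 6.61, 1.72, 20.8 and 36.2 CPM in high livers, against 1.15 to 2.94 CPM in baseline WT. In WT livers of 40 h and 48 h alone the differences were -4.18 for Runx1, -4.40 for Pdk4 and -4.92 for Lepr.

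**Figure D3:**
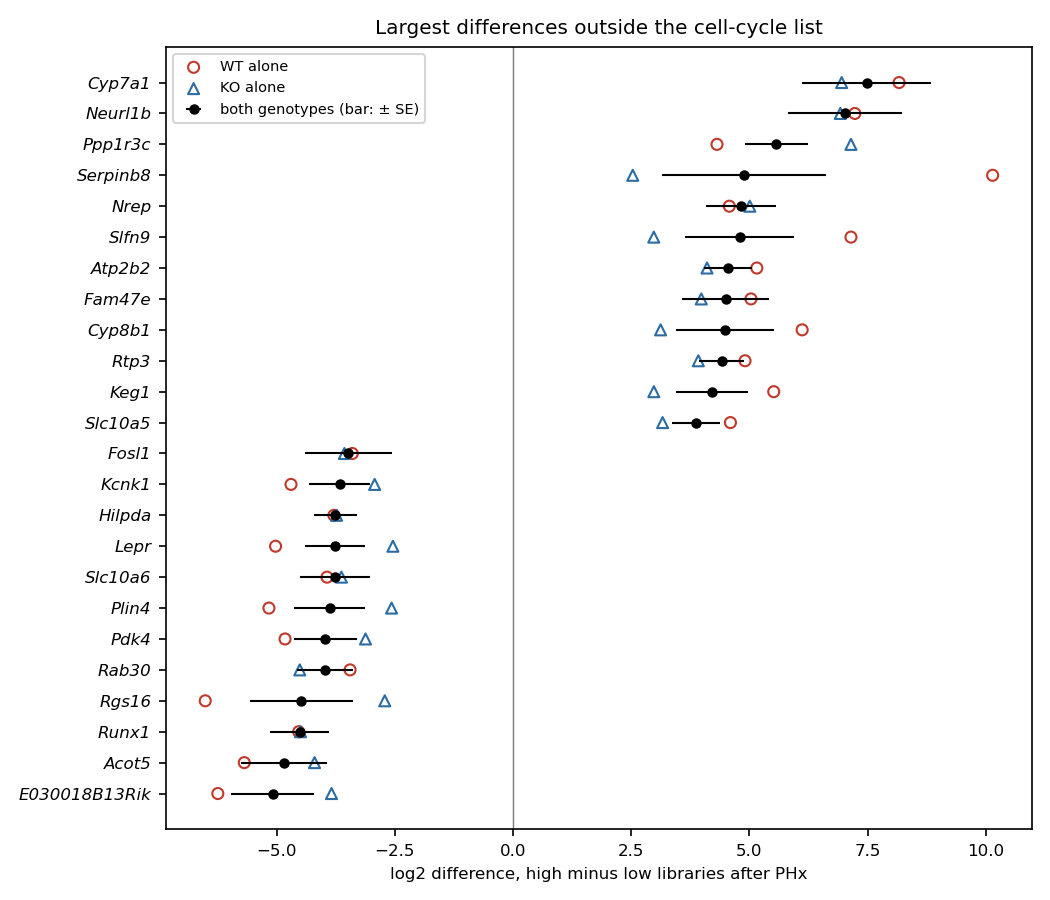
Difference between high and low livers after PHx (log2, x axis) for the 12 most positive and 12 most negative counted genes outside the cell-cycle set. Black points are the fit over both genotypes with bars of 1 SE, red circles WT alone and blue triangles KO alone; in each gene both genotypes lie on the same side of 0.

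Of 22 G1 cyclins and cyclin-dependent kinase inhibitors, 4 were counted as higher (Cdkn2c, Ccnd1, Cdkn2d and Ccnd2) and 3 as lower (Myc, Btg2 and Cdkn1a), with a median difference of 0.22 (0.14 without WT mouse 1). Cdkn2c, Ccnd1, Cdkn2d, Ccnd2 and Cdkn1a belong to the cell-cycle set, so their values describe the split and are no finding beside it. Ccnd1, which encodes cyclin D1 (ENSMUSG00000070348, chr7:144929931-144939925), read 42.6, 4.31, 49.2, 47.6 and 101 CPM in the low livers and 299, 157, 175, 507 and 235 CPM in the high livers. The classes did not overlap, and the difference was 2.83 ± 0.56. The baseline KO livers, at 123 to 327 CPM, overlapped the range of the high livers, while baseline WT livers read 17.5 to 30.1 CPM. WT mouse 4, at 4.31 CPM, was the only library after PHx below the baseline WT range.

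Cdkn1a, which encodes the p53-induced inhibitor p21 (ENSMUSG00000023067, chr17:29090976-29100727), read 329, 304, 353, 321 and 409.6 CPM in the low livers, a narrow range. In the high livers it read 52.4, 105, 74.8, 154 and 268 CPM, every value below the lowest low liver. The difference was -1.40 ± 0.30, with -2.03 in WT and -0.78 in KO. The WT livers before surgery read 1.37 to 22.02 CPM and the KO livers 54.03 to 76.2 CPM, below every low liver. Cdkn2a, which encodes p16 and p19ARF and is a classical PRC2 target, was not counted (0.72 ± 0.74), and before surgery it stood at 5.16 to 9.92 CPM in baseline KO and at most 0.0923 CPM in baseline WT.

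Myc, the transcription factor gene induced early after hepatectomy (ENSMUSG00000022346, chr15:61985391-61990374), read 30.5, 50.6, 52.5, 52.5 and 47.1 CPM in the low livers and 4.55, 14.4, 4.88, 7.96 and 11.5 CPM in the high livers. All low livers lay above all high livers, with a difference of -2.36 ± 0.34. The baseline KO livers, at 10.99 to 47.7 CPM, reached into the range of the low livers. Cdkn2c, which encodes the inhibitor p18, went the other way, at 1.24 to 3.39 CPM in low and 3.82 to 64.9 CPM in high livers. Cdkn2d, which encodes p19, did so too (2.74 ± 0.58). In WT livers of 40 h and 48 h alone the differences were 3.57 for Ccnd1, -1.84 for Cdkn1a and -2.21 for Myc.

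Genes of ribosome biogenesis, which build the ribosomes a growing cell needs, lay mostly lower in high livers. Of 74 genes, 16 were counted as lower and 0 as higher, 71 of 74 fitted differences were below 0, and the median was -0.73 (-0.67 in WT and -0.75 in KO). Their summed level was 2709.9 to 3902 CPM in low and 1608 to 2169 CPM in high livers, without overlap, and the baseline medians were 1962 CPM in WT and 1405 CPM in KO. Nle1, a factor of the large ribosomal subunit (ENSMUSG00000020692, chr11:82900768-82908411), read 7.42, 12.3, 13.7, 8.52 and 16.9 CPM in low and 3.63, 3.10, 2.82, 3.87 and 3.61 CPM in high livers. Gnl2, a nucleolar GTPase, read 70.1, 80.4, 97.96, 68.8 and 139.8 CPM in low and 28.3, 40.8, 32.02, 18.2 and 39.4 CPM in high livers. The differences were -1.72 ± 0.27 for Nle1, -1.49 ± 0.29 for Gnl2, -1.43 ± 0.25 for Nip7 and -1.42 ± 0.24 for Mybbp1a. Nucleolin (Ncl), also counted and named after its values were seen, stood at 338 to 513 CPM in low and 119.9 to 202 CPM in high livers.

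Of 34 immediate early genes, 8 were counted as lower in high livers and 0 as higher (Fosl1, Ier3, Myc, Klf4, Csrnp1, Btg2, Dusp1 and Junb), with a median of -0.83. Fosl1, a partner of Jun in AP-1, read 4.30, 6.04, 14.9, 13.4 and 8.95 CPM in low and 0, 1.45, 0, 0.498 and 1.57 CPM in high livers. Ier3 differed by -3.28 ± 0.81 and Klf4 by -1.91 ± 0.37. The summed baseline median of the list was 2568 CPM in WT and 3743 CPM in KO, against 1459 to 3369.9 CPM in low and 613 to 1636 CPM in high livers.

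Of 36 genes of nucleotide and one-carbon synthesis, 6 were counted as higher and 3 as lower, with a median of 0.31 (0.15 without WT mouse 3, 0.15 without KO mouse 10 and 0.092 without KO mouse 11). The folate enzymes Mthfd1 (1.82 ± 0.32), Shmt1 (1.61 ± 0.28) and Shmt2 (1.27 ± 0.29) were higher in high livers. Mthfd1 was at 29.4 to 71.5 CPM in low and at 109 to 236 CPM in high livers. The salvage kinase Uck2 was lower (-1.58 ± 0.26), as were Ctps (-1.19 ± 0.30) and Odc1 (-1.05 ± 0.22), the last pair named after their values were seen.

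Of 25 genes of sterol synthesis, 7 were counted as higher in high livers and 0 as lower, 23 fitted differences lay above 0, and the median was 0.81 (0.53 without WT mouse 4). The summed level was 972 to 2171 CPM in low and 2159.7 to 4557 CPM in high livers, ranges that just overlap, and the baseline median was 4497 CPM in WT and 3719 CPM in KO. Sc5d, a desaturase of the late sterol pathway (ENSMUSG00000032018, chr9:42251595-42264256), read 153, 54.04, 48.9, 69.3 and 53.9 CPM in low and 279, 192, 477, 269 and 154 CPM in high livers. Every high liver lay above every low liver, with a difference of 1.75 ± 0.34. Mvk (1.498 ± 0.30), which encodes mevalonate kinase, and Dhcr7 (1.45 ± 0.39) were also counted. Sqle, which encodes squalene epoxidase, was not (0.63 ± 0.31), and was named after its values were seen.

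Of 34 genes of bile acid synthesis and transport, 5 were counted as higher (Cyp7a1, Cyp8b1, Cyp39a1, Abcb11 and Slco2b1) and 1 as lower (Slc51b), with a median of 0.57 (0.36 without WT mouse 4). Cyp8b1 read 0.390, 0.884, 9.94, 5.90 and 9.23 CPM in low and 122, 5.96, 7.43, 98.7 and 46.6 CPM in high livers. WT mouse 3 and WT mouse 5 lay inside the range of the KO low livers, so the separation held within each genotype and not over all 10. Cyp39a1, an oxysterol hydroxylase, differed by 2.64 ± 0.60. Slc51b, a subunit of the basolateral bile acid exporter, was lower in high livers, at 24.6 to 71.8 CPM against 1.01 to 25.6 CPM, and stood at 0.0921 to 0.955 CPM in baseline WT.

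Of 78 cytochrome P450 and conjugation genes, 4 (5.13%) were counted as higher (Fmo1, Cyp2c40, Cyp3a16 and Cyp4f15) and 1 (1.28%) as lower (Sult1d1). Both shares lay below those of all genes, 7.93% and 5.71%. The median was 0.62 (0.98 without KO mouse 11), made of 1.13 in WT and 0.17 in KO. Fmo1, a flavin monooxygenase, read 8.94, 6.93, 31.6, 42.1 and 96.01 CPM in low and 169, 126, 158, 269.9 and 141 CPM in high livers, with a difference of 3.04 ± 0.55. Of 38 hepatocyte transcription factors, 6 were counted as higher and 2 as lower, with a median of 0.44. Foxa3 (1.64 ± 0.35) and Atf5 (1.55 ± 0.24) were higher, and Cebpd (-1.66 ± 0.46), an acute phase regulator, was lower. Hnf4a, the master regulator of hepatocyte identity, stood at 338 to 835 CPM in low and 528 to 662 CPM in high livers, overlapping ranges, and was named after its values were seen.

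Of 50 genes of the urea cycle and amino acid breakdown, 5 were counted as higher (Kynu, Kmo, Cps1, Nags and Cbs) and 2 as lower (among them Gpt2, -1.53 ± 0.35), with a median of 0.44 (0.77 without KO mouse 12). Kynu, the kynureninase of tryptophan breakdown (ENSMUSG00000026866, chr2:43555329-43682715), read 33.97, 35.7, 22.3, 20.7 and 37.4 CPM in low and 183, 159, 123, 156 and 119.8 CPM in high livers, against 218 to 261 CPM in baseline WT and 186 to 254 CPM in baseline KO livers. The high livers lay below baseline and the low livers further below, with a difference of 2.26 ± 0.22. Cps1, the entry enzyme of the urea cycle, read 1325, 3093, 528, 446 and 2787 CPM in low and 5941, 4879, 3984, 5022 and 3161 CPM in high livers.

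Of 55 secreted plasma protein genes, 3 (5.45%) were counted as higher (Serpind1, Cfb and C3) and 1 (1.82%) as lower (Fgb). Both shares lay below those of all genes, 7.93% and 5.71%. Of these 4 counted genes only Serpind1 was still counted with each mouse's change from its own baseline (given further on). The median of the list was 0.28 (0.14 without KO mouse 10 and 0.45 without KO mouse 12). Alb itself differed by -0.15 ± 0.42, within its SE. Afp, the fetal albumin relative, was not counted (2.05 ± 1.00); it reached 50.9 CPM in KO mouse 8 among low livers and 149 CPM in KO mouse 11 among high livers, with 0.353 to 35.1 CPM in the other 8 livers. Of 75 oxidative phosphorylation subunits 0 were counted in either direction, with a median of 0.15 (-0.036 without KO mouse 10 and 0.28 without KO mouse 11).

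Of 24 lipid droplet genes, 6 were counted as lower in high livers (Plin4, Hilpda, Cidec, Cidea, Plin2 and Pnpla2) and 0 as higher, with a median of -0.49 (-0.28 without KO mouse 8), and the summed level was 4071 to 8091 CPM in low and 1958 to 3504 CPM in high livers. Of the fitted differences 9 lay above 0 and 15 below. Without Plin2 the summed levels overlapped, at 1900.2 to 4056 CPM in low and 1321 to 2263 CPM in high livers. Hilpda, a hypoxia-induced inhibitor of lipolysis (ENSMUSG00000043421, chr6:29272488-29275446), read 58.6, 53.9, 165, 77 and 76.8 CPM in low and 1.40, 6.76, 3.99, 4.36 and 11.6 CPM in high livers, with no overlap and a difference of -3.76 ± 0.45. Cidec, which fuses lipid droplets, was 251 to 745 CPM in low and 4.75 to 173 CPM in high livers. Plin2, the main droplet coat protein of hepatocytes, named after its values were seen, was 4035, 3340.4, 2171, 2201 and 2867 CPM in low and 640.2, 1241, 564, 551 and 773 CPM in high livers, against 462 to 656 CPM in baseline WT.

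Of 49 genes of fatty acid oxidation and PPAR-alpha targets, 4 (8.16%) were counted as lower (Pdk4, Pex11a, Angptl4 and Cyp4a32) and 1 (2.04%) as higher (Eci1). The shares of all genes were 5.71% and 7.93%. The median was 0.11 (-0.0037 without WT mouse 4 and 0.31 without WT mouse 2). Pdk4, the kinase that shuts off pyruvate dehydrogenase in fasting (ENSMUSG00000019577, chr6:5483351-5496309), read 612, 1017, 1664, 1442 and 1606 CPM in low and 10.98, 41.1, 34.2, 28.4 and 333 CPM in high livers. KO mouse 11, with 333 CPM, stood apart among the high livers but below every low liver, and the difference was -3.97 ± 0.67. Of 26 genes of fatty acid synthesis, Elovl2 (1.59 ± 0.27) and Mlxipl (1.39 ± 0.33), which encodes the carbohydrate sensor ChREBP, were counted as higher and Insig2 (-1.74 ± 0.45) as lower.

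Of 47 glucose and glycogen genes, 7 were counted as higher and 5 as lower, with a median of 0.36 (0.19 without WT mouse 3) that was 0.094 with collection time in the fit. The higher ones included the glycogen-targeting phosphatase subunits Ppp1r3c and Ppp1r3b. Ppp1r3b, the liver form (ENSMUSG00000046794, chr8:35375739-35388139), read 18.9, 6.36, 5.01, 2.73 and 12.5 CPM in low and 74.7, 77.3, 44.8, 82.01 and 41.5 CPM in high livers, against 125 to 408 CPM in baseline WT, and differed by 2.79 ± 0.47. Ppp1r3c read 3.43, 0.813, 0.177, 0.217 and 0.283 CPM in low and 28.5, 68.4, 28.5, 31.1 and 32.8 CPM in high livers. Pfkfb1, the bifunctional regulator of glycolysis, differed by 2.59 ± 0.48. Igfbp1 and Irs2, named after their values were seen, were lower (-2.09 ± 0.46 and -1.05 ± 0.23).

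**Figure D4:**
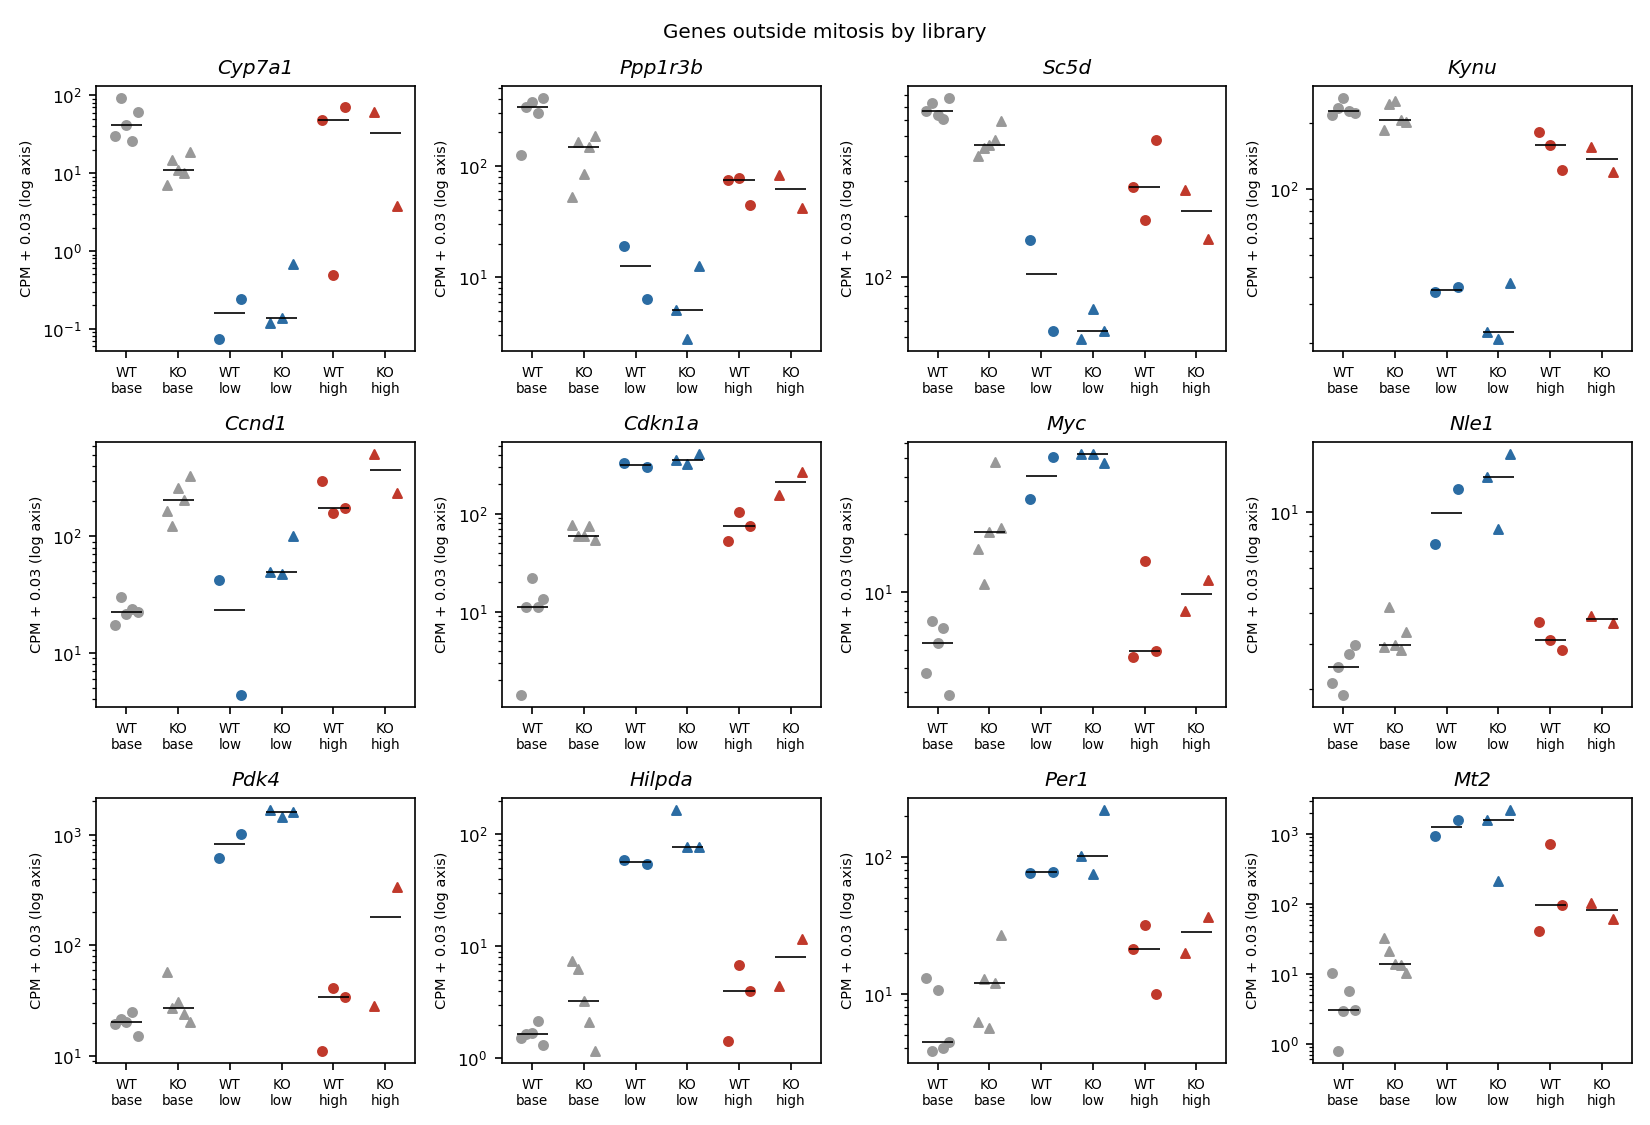
CPM of 12 genes outside mitosis in each library (log axis, 0.03 added), by genotype and class, with circles for WT, triangles for KO and lines at group medians. For all 12 genes every high liver lies on the same side of every low liver within its genotype, and for Nle1 the high livers lie within or near the range of the baseline livers.

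Of 65 growth factor and receptor genes, 8 were counted as higher and 5 as lower, with a median of -0.25 (-0.56 without KO mouse 11 and -0.11 without KO mouse 10). Lgr5, a receptor of R-spondins that marks hepatocytes around the central vein, read 0.174, 0, 0.590, 1.15 and 0.235 CPM in low and 7.74, 4.17, 7.60, 5.40 and 2.84 CPM in high livers. Axin2, a direct target of Wnt and beta-catenin signalling, read 2.34, 2.05, 0.944, 1.06 and 1.13 CPM in low and 13.4, 3.71, 11.2, 9.64 and 6.15 CPM in high livers. The differences were 4.06 ± 0.89 and 2.51 ± 0.39, without overlap for either gene, and the high livers lay in or near the baseline WT ranges of 2.03 to 6.63 and 2.32 to 12.2 CPM. The Wnt feedback genes Notum and Rnf43 were looked at after these values were seen. Notum differed by 2.95 ± 0.86 and Rnf43 by 1.73 ± 0.23, and both were counted as higher. Znrf3, the paralog of Rnf43, was not counted (0.47 ± 0.26).

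Of 40 acute phase and metal-binding genes, 3 were counted as higher (Saa4, Serpina10 and Crp) and 7 as lower, with a median of -0.22 (-0.42 without WT mouse 3). The lower ones named by rule were Ngp, Cd14, Mt2 and Orm3. Mt2, a metallothionein that binds zinc (ENSMUSG00000031762, chr8:94172664-94173568), read 948, 1566, 1616, 216 and 2205 CPM in low and 40.5, 712, 97.4, 103 and 61.7 CPM in high livers. WT mouse 3, at 712 CPM, lay above KO mouse 8 at 216 CPM, so the classes overlapped between genotypes but not within one. The difference was -3.09 ± 0.92, and baseline levels were 0.754 to 10.2 CPM in WT and 10.3 to 33.1 CPM in KO livers. Its neighbour Mt1, named after its values were seen, overlapped in WT and was not counted (-2.88 ± 1.01). The Mt2 promoter is printed because metallothionein genes are known to respond to metal through short repeated elements. It is the RefSeq window from 250 bases before to 50 after the start in build GRCm38.p6, 5′ to 3′ (chr8:94172368-94172667, plus strand). Capitals mark 4 matches to the metal response element cores TGCACNC or TGCGCNC on either strand.
Mt2: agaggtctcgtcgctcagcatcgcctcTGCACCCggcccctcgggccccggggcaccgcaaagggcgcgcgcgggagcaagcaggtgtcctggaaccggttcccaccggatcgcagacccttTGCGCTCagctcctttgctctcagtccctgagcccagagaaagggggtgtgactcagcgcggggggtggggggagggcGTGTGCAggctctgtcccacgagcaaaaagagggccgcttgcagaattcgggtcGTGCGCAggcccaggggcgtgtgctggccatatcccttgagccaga
Of 32851 promoter windows of this length, 25.7% hold at least 1 such match and 1.97% hold 3 or more. The Mt1 window holds 3.

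Of 47 genes of the unfolded protein and amino acid stress responses, 5 were counted as higher and 4 as lower, with a median of 0.07 (0.019 without KO mouse 8). Slc7a11, the cystine importer, was lower in high livers, at 2.42 to 10.2 CPM in low and 0 to 2.06 CPM in high livers. Ppp1r15a, which encodes GADD34, differed by -1.33 ± 0.22. Of 38 p53 targets, 4 were counted as higher (Ckap2, Psrc1, Ddit4l and Fas) and 3 as lower (Btg2, Cdkn1a and Trp53inp1), with a median of -0.12 (0.031 without KO mouse 10, 0.036 without KO mouse 8 and 0.15 without WT mouse 2). Ckap2 and Psrc1 bind the mitotic spindle and belong to the cell-cycle set, and their differences were 4.52 ± 1.19 and 2.66 ± 0.88. Of 53 interferon-stimulated genes, 4 (7.55%) were counted as higher (Psmb9, Zbp1, Irf1 and Herc6) and 0 as lower. The higher share lay near the 7.93% of all genes. The median of 0.44 (-0.015 without KO mouse 11 and 0.97 without WT mouse 4) was made of 0.02 in WT and 0.87 in KO. Of 36 glutathione and Nrf2 genes, Slc7a11 and Pgd were counted as lower and 0 as higher.

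Of 26 circadian clock genes, 5 were counted as lower in high livers (among them Ciart, Per1, Bhlhe40 and Csnk1e) and 0 as higher, with a median of -0.47. Per1, a repressor of the clock (ENSMUSG00000020893, chr11:69095217-69109960), read 76.2, 78.1, 102, 74.98 and 221 CPM in low and 21.3, 31.7, 9.87, 19.7 and 36.4 CPM in high livers, with no overlap and a difference of -2.06 ± 0.38. Ciart, another repressor, read 11.7, 8.62, 4.10, 3.45 and 16.9 CPM in low and 5.34, 1.11, 0.378, 0.957 and 1.02 CPM in high livers. WT mouse 1 at 30 h, the highest of the high livers at 5.34 CPM, lay above KO mice 7 and 8. The clock activator Arntl (0.46 ± 0.52) and the output gene Dbp (1.96 ± 0.89), named after their values were seen, were not counted. Dbp was highest in WT mouse 1 at 30 h (55.03 CPM), and its WT difference of 3.25 was 0.92 at 40 h and 48 h alone. The WT difference at those times was -2.12 for Per1 and -3.90 for Ciart. The labels give no time of day.

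The promoter windows of Ciart and Per1 are printed because the E-box CACGTG is the site that the clock activators CLOCK and BMAL1 are known to bind. Both are RefSeq windows of build GRCm38.p6 as above, 5′ to 3′, with E-boxes in capitals (Ciart chr3:95882179-95882478, minus strand; Per1 chr11:69098699-69098998, plus strand).
Ciart: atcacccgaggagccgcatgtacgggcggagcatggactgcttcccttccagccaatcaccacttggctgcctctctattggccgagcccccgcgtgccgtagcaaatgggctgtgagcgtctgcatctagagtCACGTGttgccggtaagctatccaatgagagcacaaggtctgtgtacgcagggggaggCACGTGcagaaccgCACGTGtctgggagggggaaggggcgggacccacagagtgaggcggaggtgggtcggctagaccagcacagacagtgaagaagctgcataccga
Per1: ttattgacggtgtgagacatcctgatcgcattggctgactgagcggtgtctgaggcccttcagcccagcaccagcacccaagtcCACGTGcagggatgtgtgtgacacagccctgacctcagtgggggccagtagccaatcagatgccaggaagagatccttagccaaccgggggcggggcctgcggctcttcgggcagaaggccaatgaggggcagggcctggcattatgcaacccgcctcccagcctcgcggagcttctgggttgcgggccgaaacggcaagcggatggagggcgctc
The palindrome CACGTG reads the same on both strands, and 7.15% of 32851 windows hold it. The Ciart window holds 3, this Per1 window holds 1, and 0.09% of windows hold 3 or more. The other Per1 window and the 4 windows of Csnk1e hold 0. A match is a description of the letters, and binding was not measured.

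Counts of markers of other liver cells stand beside the shares of all genes, 7.93% counted as higher and 5.71% as lower. Of 24 macrophage markers, 5 were counted as higher in high livers (Cd5l, Clec4f, Adgre1, Lyz2 and Vsig4) and 1 as lower (Cd14), with a median of 0.92, while the summed level overlapped at 329 to 1115 CPM in low and 297 to 774 CPM in high livers. Clec4f, a lectin of resident Kupffer cells, read 14.5, 5.94, 8.35, 31.4 and 25.99 CPM in low and 39.1, 48.3, 40.2, 82.2 and 70.6 CPM in high livers. Cd14, a co-receptor for bacterial lipopolysaccharide that hepatocytes also express, read 35.9, 116, 556, 83.4 and 275 CPM in low and 0.437, 26.6, 0.963, 10.4 and 29.5 CPM in high livers. Of 25 endothelial markers, 5 were counted as higher (Dnase1l3, Clec4g, Gpr182, Kdr and Oit3) and 1 as lower (Lyve1), with summed levels of 285 to 465.7 and 335 to 657 CPM. Dnase1l3 read 7.16, 2.93, 2.95, 4.81 and 14.1 CPM in low and 34.7, 18.2, 24.6, 41.4 and 30.5 CPM in high livers, and Lyve1 read 47.99, 26.3, 51.1, 52.5 and 46.7 CPM in low and 3.89, 17.7, 2.44, 6.54 and 17.03 CPM in high livers. Cd14 and Lyve1 were no longer counted with each mouse's change from its own baseline. The general endothelial marker Pecam1, named after its values were seen, was 11.9 to 20.9 CPM in low and 9.36 to 19.6 CPM in high livers.

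Of 28 stellate and fibroblast markers, 5 were counted as higher (Thy1, Ngfr, Col1a1, Lrat and Col3a1) and 1 as lower (Pdgfra), with summed levels of 460.2 to 1015 and 387 to 949.8 CPM. Pkhd1 was the only counted gene of 20 cholangiocyte markers and Ighm of 9 lymphocyte markers, both as higher. Klf1 was the only counted gene of 9 erythroid markers, as lower (-2.24 ± 0.49), while 7 of the 9 erythroid differences were above 0. The median of the cholangiocyte markers was 0.19 (0.42 without KO mouse 10), and it turned negative without KO mouse 11 (-0.21), WT mouse 3 (-0.11), KO mouse 12 (-0.019) or both WT mouse 3 and KO mouse 11 (-0.79). Their summed level went the other way, at 2338 to 4213 CPM in low and 1018 to 2624 CPM in high livers. Of 10 neutrophil markers, Ngp and Lcn2 were counted as lower and 10 of 10 differences were below 0, with a median of -1.50 (-2.85 without WT mouse 3), made of -0.52 in WT and -2.33 in KO. Ngp, which encodes a neutrophil granule protein, read 0.738, 2.90, 13.03, 0.390 and 0.471 CPM in low and 0, 0.153, 0, 0 and 0 CPM in high livers, so that KO mouse 7 held most of its counts. Lcn2, which hepatocytes also make as an acute phase protein, was 1412 to 3921 CPM in low and 420.5 to 3088 CPM in high livers. The defining neutrophil gene Ly6g was at most 0.188 CPM in any low and 0.153 CPM in any high liver. No member of the macrophage, endothelial, stellate, cholangiocyte or neutrophil lists was at 0 in all low or in all high livers, while 3 lymphocyte markers were at 0 in all low livers and 1 erythroid marker in each class. The part of cell composition in the differences above was not tested.

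Of the 85 tested developmental genes under PRC2 control, Wnt7b and Hoxa5 (2.35%) were counted, both as lower in high livers, and 83 were not. The lower share of all genes was 5.71%. In WT livers Hoxa5 nearly overlapped, at 0.824 and 0.707 CPM in low and 0.656, 0.688 and 0.0688 CPM in high livers, with a WT difference of -0.71. In the 5 WT livers 41 of the 85 had no count and 56 had at most 3 counts in all, so these genes passed the filter on low counts through the KO livers. The summed level was 109.6 and 93.4 CPM in low and 128, 96.5 and 129.7 CPM in high WT livers. In KO livers it was 531, 288 and 471 CPM in low and 307 and 204 CPM in high livers, and the classes overlapped in both genotypes. Of 32 fetal and oncofetal genes, the imprinted growth regulator H19 and Spink1 were counted as higher, with H19 at 0 to 18.1 CPM in low and 0.0344 to 99.8 CPM in high livers, overlapping over both genotypes. In WT livers H19 and Spink1 rested on as few as 1 and 2 counts in a high liver. Of 41 male-biased liver genes, Keg1, Srd5a1, Igfals and Bcl6 were counted as higher and Socs2, Mup7, Mup11 and Mup12 as lower; the Mup genes are near-identical copies, and their counts are uncertain. Of 32 female-biased genes, A1bg, Cyp2b9, Cyp2c40 and Cyp3a16 were counted as higher and Sult1e1 as lower. In WT livers A1bg had 0 and 1 counts in low and 1, 1 and 11 counts in high livers, in the order of mice used throughout, and Cyp2b9 had 0 and 0 against 20, 2 and 1 counts, so in WT the separation of Cyp2b9 rests on a single count, and A1bg separates by library size alone, with 1 count in a low and in 2 high livers. Of 26 tubulin and actin genes, Tuba1b was counted as higher and Tubb2a as lower, both of the cell-cycle set.

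**Figure D5:**
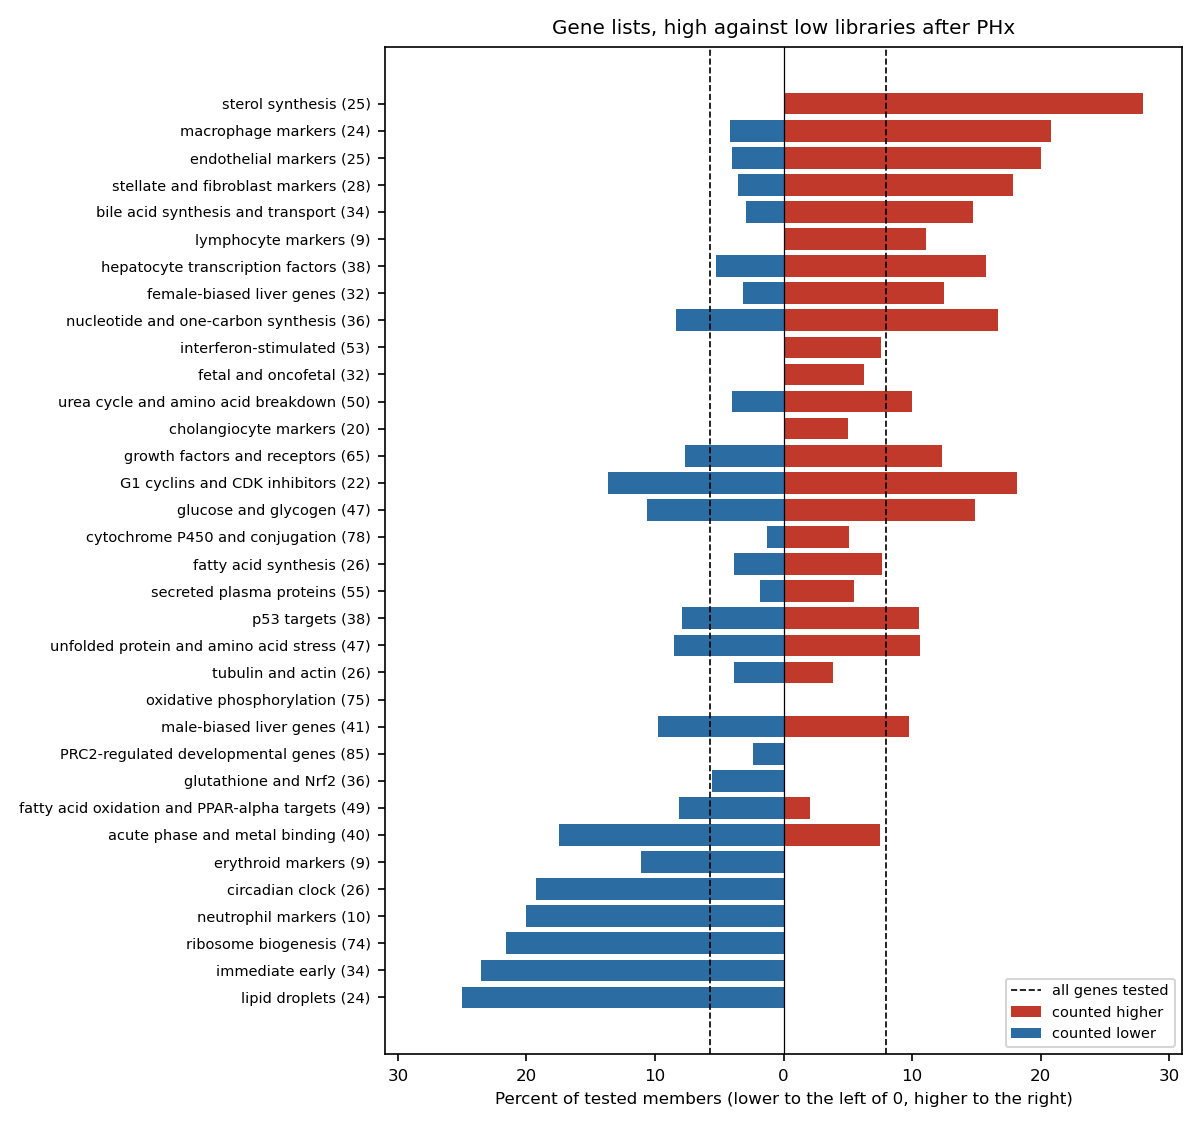
Percent of the tested members of each gene list outside the cell cycle (number tested in brackets) counted as higher (red, right of 0) or lower (blue, left) in high livers, with dashed lines at 7.93% and 5.71%, the shares of all genes tested. The cell-cycle lists are left out, but some lists drawn share counted genes with the cell-cycle set, so their bars partly describe the split. These genes are Cdkn2c, Ccnd1, Cdkn2d, Ccnd2 and Cdkn1a of the G1 list, Ckap2, Psrc1 and Cdkn1a of the p53 list, and Tuba1b and Tubb2a. Among the lists drawn, sterol synthesis has the longest bar to the right (7 of 25) and lipid droplets the longest to the left (6 of 24).

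For 9 of the 10 mice a library from before surgery is tied to the library after PHx by the mouse number, which leaves out WT mouse 1. The same rule was applied to each mouse's change from its own baseline, with the mouse as replicate block, a fit chosen after seeing the data and also given without a test. It counted 1116 genes as higher and 772 as lower in high livers, of which 878 and 581 were also counted from the levels after PHx. Of 123 genes named by rule and counted from the levels, 30 were no longer counted with the block, and 29 of these kept their sign. Those that had been counted as higher were Cyp7a1 (6.18), H19 (3.75), Cyp2b9 (3.36), Psrc1 (2.36), Mvk (1.74), Ighm (1.49), Ddit4l (1.46), Ngfr (1.35), Foxa3 (1.35), Cfb (1.00) and C3 (0.83), with the log2 difference of the changes in brackets. Those that had been counted as lower were Rgs16 (-5.17), Cd14 (-3.08), Klf4 (-2.13), Lyve1 (-2.07), Cidea (-1.85), Cebpd (-1.72), Hoxa5 (-1.72), Orm3 (-1.59), Sult1d1 (-1.53), Slc51b (-1.41), Gpt2 (-1.38), Gnl2 (-1.30), Bhlhe40 (-1.08), Fgb (-1.03), Pgd (-0.91), Tubb2a (-0.88), Btg2 (-0.71) and Lcn2 (-0.71). The sign turned for Sult1e1, from -3.48 to 0.41. The largest differences named above kept their count with the block except for Cyp7a1 and Rgs16, and so did Ccnd1, Cdkn1a and Myc.

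Whether the classes could be seen before surgery is the comparison that the split did not use. Of the 10 baseline libraries, 9 carry a mouse number that ties them to a library after PHx, and these were tested by later class with genotype as covariate. Of 14478 genes, edgeR's quasi-likelihood test called 0 (0.00%) as higher and 0 (0.00%) as lower at an adjusted p under 0.05, and 335 (2.31%) had an unadjusted p under 0.05. DESeq2 called 0 genes and gave 394 at an unadjusted p under 0.05. Without the filter on low counts, edgeR called 16 genes as higher and 55 as lower, in a fit that took in every gene with any count over the 9 libraries. The smallest p-values belonged to Gm10288 (-0.72 ± 0.14, later high minus later low, log2), Sult1e1 (-3.86 ± 0.85) and Metrn (-0.88 ± 0.20), all with an adjusted p of 0.9995 by edgeR. Sult1e1, an oestrogen sulfotransferase, was at most 1.70 CPM in any baseline liver. A test of whether the baseline difference depended on genotype called 0 genes by edgeR, with 474 at an unadjusted p under 0.05.

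Mki67 before surgery was -1.77 ± 0.75 (log2) in later high relative to later low mice, with an adjusted p of 0.9995 by edgeR's quasi-likelihood test. In KO mice it read 3.40 and 4.28 CPM in the later high mice 10 and 11, and 34.7, 26.5 and 2.49 CPM in the later low mice 7, 8 and 12, so the ranges overlapped. Cdkn1a before surgery differed by 0.34 ± 0.19, also with an adjusted p of 0.9995 by edgeR. Of the 1925 genes counted after PHx that were tested at baseline, 56 had an unadjusted p under 0.05 there. In simulated baseline counts with 14478 genes, 200 drawn from those with a mean above 1 CPM were changed by 2 on the log2 scale. The same test recovered 94% of these 200. The simulated counts were independent between genes and held no genotype difference, so the recovery in the real libraries can be lower. No call among the genes that passed the filter on low counts does not show that the livers were alike, and without that filter 16 genes were called as higher and 55 as lower.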

How the data were processed

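Messenger RNA from 20 liver samples of mice, taken before and after PHx, was sequenced in pairs after poly(A) selection, per the labels' protocols. The authors deposited whole-number read counts per gene for each library. Reads were aligned to mm10 and uniquely mapped reads were counted, per the labels' design text; the aligner, the counter, the annotation and the strand setting are not given in the sources used here. Trimming was by fastp per the design text, and FastQC 0.11.5 and Trimmomatic 0.36 are named in the submitters' processing notes. Of 46603 identifiers, 46005 were named through GENCODE release M21 and 21018 had no count in any library.

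Libraries were scaled by TMM over all 20 libraries, genes filtered by filterByExpr and differences fitted with edgeR 4.0.16 in R 4.3.3 (DESeq2 1.42.0 as alternative), with genotype as covariate. Classes came from mitotic gene expression, so no p-value was used for high against low livers. Baseline libraries were tested by later class with edgeR's quasi-likelihood test and Benjamini-Hochberg adjustment. The test was checked on simulated data. The members and the gene lists were chosen with earlier results of these data known. Named genes were 9 set genes, the 12 highest and 12 lowest counted protein-coding genes with a mean of at least 5 CPM outside the cell-cycle set, up to 4 counted members of each list with a mean of at least 1 CPM, and the 3 lowest p-values at baseline; others are said to be chosen after their values were seen. Alternatives covered scaling, filtering, collection time, tool, fold threshold, each genotype alone, leaving out libraries and each mouse's change from its own baseline. A list's median is followed in brackets by its lowest and highest value, and any of opposite sign, without 1 liver where that moved it by over 1.5 times. Of 217 genes tabled with values, 90 are overlapped by a gene on the other strand, and such reads cannot be told apart if strand was ignored. The 10 mice of the series were separate animals, 1 library each after PHx. A few genes that the naming rule selects are not reported here.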

Additional observations from a re-analysis of the deposited data

Results flagged for a closer look

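In 15 of 66 sets of 5 livers, 1 liver lay far from the other 4 by Dixon's test at 95%; for genes chosen without regard to these values chance alone flags about 1 in 20 sets. That rate does not apply here, since most of these genes made the split or were chosen for their difference between classes, and each set mixes WT and KO livers. Sets are single genes within the high or the low livers, and genes that move together are not independent. KO mouse 11 at 40 h was the liver apart in 5 genes of the high class, with Afp at 149 CPM, Acot5 at 3.97 CPM, Rgs16 at 24.1 CPM, Pdk4 at 333 CPM and Slc10a6 at 16.3 CPM. In the last 4 genes, which were lower in high livers, it was the high liver nearest to the low livers.

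Other high livers stood apart in 1 gene each: WT mouse 3 for Ppp1r3c (68.4 CPM), WT mouse 5 for Serpinb8 (79.0 CPM), KO mouse 10 for Nrep (81.9 CPM) and WT mouse 1 for Slfn9 (105 CPM). Among low livers, KO mouse 8 stood apart for Afp (50.9 CPM) and Serpinb8 (5.49 CPM), KO mouse 12 for Cyp7a1 (0.659 CPM) and Keg1 (3.44 CPM), WT mouse 2 for Ppp1r3c (3.43 CPM) and KO mouse 7 for Hilpda (165 CPM).

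In 10 genes the high and low livers were separated in opposite directions in WT and KO, a difference that was not tested. They include Cyp2b10 (log2 difference -1.69 in WT and 1.26 in KO), Sdr42e1 (-1.23 and 1.52), Kcnj15 (4.05 and -2.97) and Zbtb2 (1.27 and -1.54), named after their values were seen. In WT, Kcnj15 read 0 and 0 CPM in low and 0.0437, 0.0382 and 0.138 CPM in high livers. Its WT difference depends on the small count that the fit adds and is no bound.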

How the results depend on the processing

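High and low livers came from different mice, so the replicate block could only pair each mouse's liver after PHx with its own baseline (9 mice, 6 residual degrees of freedom). With this block, chosen after seeing the data, 1116 genes were counted as higher and 772 as lower, the medians were 0.25 for unfolded protein, -0.72 for clock, 0.78 for female-biased and 1.0994 for lymphocyte genes, and Sult1e1 turned to 0.41. With library size alone the median of all genes moved from 0.01 to 0.09, and the higher share of counted genes from 58.2% to 67.3%. Counts of higher and lower genes after PHx were 2101 and 1437 in WT alone, 1895 and 1790 in KO alone, 2381 and 1695 in WT at 40 h and 48 h, where fewer libraries have to separate, and 1888 and 1556 without WT mouse 3 and KO mouse 11, chosen after seeing the data. A threshold of 1.5-fold gave 1490 lower genes. Without a filter, 16 genes were called higher and 55 lower at baseline. Leaving out each liver in turn gave 1250 to 1586 higher and 880 to 1216 lower genes. In the main fit the medians were 5.20 for mitosis, 0.53 for female-biased, 1.31 for lymphocyte and 0.74 for erythroid genes. With collection time as a factor the medians were 7.08 for mitosis, 0.094 for glucose and glycogen, 0.27 for female-biased, -0.64 for PRC2-regulated and 0.99 for lymphocyte genes. Without the 30 h libraries the median was 0.85 for female-biased genes. Without WT mouse 3 and KO mouse 11, medians were -0.58 for growth factors, -0.79 for cholangiocyte, 1.62 for lymphocyte, -2.79 for neutrophil and 0.31 for erythroid markers. Leaving out each liver in turn, medians ranged from -1.59 to -0.81 for PRC2-regulated (-1.19 with all livers, 0.00 in WT, where 41 of 85 genes have no count, and -1.38 in KO), 0.25 to 0.99 for erythroid, -0.56 to -0.11 for growth factor, 1.15 to 1.52 for lymphocyte, -2.85 to -1.15 for neutrophil and 0.092 to 0.32 for nucleotide genes. The causes were not tested. Precision is limited by 2 or 3 mice of a class in each genotype. Of 2583 refitted values of 123 counted genes, 82 no longer separated or fell under the threshold and 1 changed sign (Sult1e1, above).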

Other observations

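Several further genes, named after their values were seen, separated the classes without overlap. Cirbp, a cold-inducible RNA-binding protein, read 60.4, 38.9, 50.8, 35.1 and 45.4 CPM in the low livers (WT mice 2 and 4, KO mice 7, 8 and 12) and 5.07, 11.2, 6.78, 5.05 and 4.82 CPM in the high livers (WT mice 1, 3 and 5, KO mice 10 and 11). Its relative Rbm3, also induced by mild cold, read 347, 318, 278, 241 and 167 CPM in low and 34.1, 105, 48.3, 37.8 and 40.4 CPM in high livers. The low livers lay above the baseline ranges of both genes, which in WT were 7.29 to 10.8 CPM for Cirbp and 17.03 to 30.5 CPM for Rbm3.

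Fkbp5, a target of the glucocorticoid receptor, was 138 to 319 CPM in low and 29.3 to 95.7 CPM in high livers (-1.74 ± 0.36). Hif1a, which encodes the oxygen-sensing transcription factor, was 70.5 to 266 CPM in low and 25.3 to 45.5 CPM in high livers (-1.75 ± 0.34). The fat lipase gene Pnpla2, of the lipid droplet list, was 226 to 410.3 CPM in low and 52.9 to 133 CPM in high livers (-1.85 ± 0.29).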
